A study of Mus musculus with 8 samples.

Results

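Gdf10/Sfrp2 fibroblasts are heart fibroblasts chosen by the messenger RNA they carried. In single-cell RNA sequencing of mouse hearts, each droplet barcode that held 200 to 6000 genes, 500 to 30000 unique molecular identifiers (UMIs, counted RNA molecules) and less than 15% mitochondrial UMIs was kept. A kept barcode was taken as a fibroblast when it held at least 1 UMI of Pdgfra, at least 20 UMIs of Col1a1, Col1a2, Col3a1 and Dcn together, and none of Ptprc or Pecam1. It was a member when its UMIs of Gdf10, Rbp4, Sfrp2 and Igfbp3 together outnumbered those of Cxcl14, Pla1a, Pcsk6 and Loxl2, with less than 2 UMIs of Postn and less than 3 of Wif1, Ucma and Chad together. This gave 1367 members among 8049 gated fibroblasts and 27053 kept barcodes.

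The mice were male wild type C57BL/6J, given as 8 weeks old in the study's account of the surgery. Transverse aortic constriction (TAC) narrows the aortic arch with a suture and loads the left ventricle with pressure; sham mice went through the operation without the ligature. Hearts were taken 2, 4 and 6 weeks after TAC (TAC-2w, TAC-4w, TAC-6w), and each condition had 1 single-cell library and 1 heart section for spatial transcriptomics. The number of hearts behind each library is not given in the labels. With 1 library per condition, differences between conditions have no replicate check, and every interval between conditions below covers counting error only. By its label, batch 1 holds the TAC-2w library, batch 2 the TAC-4w library and batch 3 both the sham and the TAC-6w library, so for TAC-2w and TAC-4w against sham the condition and the batch label cannot be told apart. Where 4 values follow each other below, they stand for sham first and then for 2, 4 and 6 weeks after TAC.

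Cardiac fibroblasts make and repair the collagen matrix of the heart and answer to pressure load, and they fall into subsets that differ in the secreted proteins they make. Gdf10 is a secreted protein of the bone morphogenetic protein (BMP) family, Sfrp2 is a secreted modulator of Wnt signalling, Igfbp3 binds insulin-like growth factors and Rbp4 carries retinol. Pdgfra is the receptor that marks most fibroblasts, Dcn is the collagen-binding proteoglycan decorin, and Postn, periostin, is a matrix protein known from activated fibroblasts.

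The promoters of Gdf10 and Rbp4 are shown because these genes mark the sort of member whose share of the class is followed below. RefSeq sequence of mouse build GRCm38.p6 held a window for all 4 of the genes (matched by symbol); each window printed here is the 250 bases before an annotated start, 5′ to 3′ on the strand of the gene, and capitals mark a motif. The Gdf10 window is chr14:33923337-33923586 on the plus strand, just before the gene (chr14:33923587-33936514). The Rbp4 windows are chr19:38125322-38125571 and chr19:38124812-38125061 on the minus strand, before 2 annotated starts of the gene (chr19:38116620-38125321).
Gdf10: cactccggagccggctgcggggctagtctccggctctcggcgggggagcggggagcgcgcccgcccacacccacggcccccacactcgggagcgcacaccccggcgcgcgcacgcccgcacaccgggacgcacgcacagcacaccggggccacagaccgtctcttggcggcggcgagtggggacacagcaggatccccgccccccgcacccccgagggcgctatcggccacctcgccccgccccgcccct
Rbp4, upstream start: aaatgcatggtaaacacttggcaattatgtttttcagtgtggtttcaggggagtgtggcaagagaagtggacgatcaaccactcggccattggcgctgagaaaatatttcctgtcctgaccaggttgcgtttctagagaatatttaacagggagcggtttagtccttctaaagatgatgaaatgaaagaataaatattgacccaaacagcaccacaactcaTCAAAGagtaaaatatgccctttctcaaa
Rbp4, downstream start: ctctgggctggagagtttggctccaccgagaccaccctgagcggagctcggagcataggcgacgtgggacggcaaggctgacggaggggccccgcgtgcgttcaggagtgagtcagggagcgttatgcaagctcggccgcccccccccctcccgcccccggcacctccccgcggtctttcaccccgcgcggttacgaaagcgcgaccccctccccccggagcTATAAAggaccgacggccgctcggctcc

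The windows were searched on both strands for the TATA box TATAAA, the TEAD motif GGAATG, the TCF/LEF motif CTTTGA and the SMAD motif CAGACA, and no printed window held more than 1 of them. Of 32851 RefSeq windows of the same length, 12.4% held TATAAA, 12.6% GGAATG, 13.8% CTTTGA and 17.1% CAGACA. The downstream Rbp4 window held the TATA box and the upstream one the TCF/LEF motif on the opposite strand. The Gdf10 and Igfbp3 windows held none of the 4 motifs, and the Sfrp2 window held the SMAD motif. These matches are a description of letters.

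The sham library gave 562 members, TAC-2w 518, TAC-4w 94 and TAC-6w 193. They were 17.1% of the gated fibroblasts in sham (95% Clopper-Pearson interval 15.8 to 18.4), 21.0% in TAC-2w (19.4 to 22.7), 33.0% in TAC-4w (27.6 to 38.8) and 9.62% in TAC-6w (8.37 to 11). The share was thus highest in TAC-4w and lowest in TAC-6w, with no overlap between any of the 4 intervals. The TAC-4w library held the fewest fibroblasts, 285 against 3294 in sham, so the members made up only 1.39% of its kept barcodes, against 6.83% in sham, 7.97% in TAC-2w and 3.46% in TAC-6w. A share of barcodes depends on how well each cell type came through the preparation, and the part of that in these shares was not tested.

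**Figure D1:**
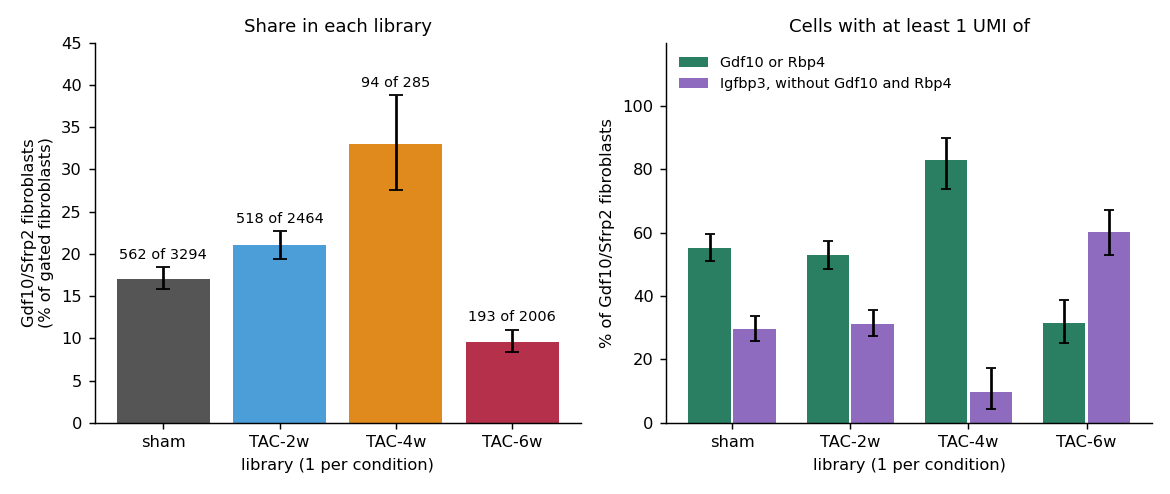
Left, share of gated fibroblasts that were members, in percent, in each of the 4 libraries; right, percent of members with Gdf10 or Rbp4 (green) and with Igfbp3 but neither of those (purple). Bars on the columns are 95% Clopper-Pearson intervals for counting error only; TAC-4w has the highest share of members (33.0%) and of Gdf10 or Rbp4 cells (83.0%), and TAC-6w the lowest (9.62% and 31.6%).

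The other gated fibroblasts served as the comparison. There were 4345 Cxcl14/Pla1a fibroblasts, in which the opposing sum was the larger, 1840 Postn-positive fibroblasts with 2 or more Postn UMIs, 194 with 3 or more UMIs of Wif1, Ucma and Chad, and 437 in which the sums were tied; 134 barcodes met both the Postn and the Wif1, Ucma and Chad condition and are counted in both. The median member held 9377 UMIs in sham, 11391 in TAC-2w, 12378 in TAC-4w and 5402 in TAC-6w. Members were therefore read least deeply in TAC-6w, where the sums also rest on 1067258 UMIs in all, against 5373562 in sham, 6059666 in TAC-2w and 1207151 in TAC-4w. No member barcode was shared between libraries, although 9 to 30 barcodes, counted before any filter, were shared by each pair of libraries.

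The gate let in many barcodes close to its threshold. A difference of a single UMI between the sums admitted 225 members, in which Gdf10 stood at 26.6 counts per 1000000 UMIs (CPM), Rbp4 at 75.7, Sfrp2 at 70.7 and Igfbp3 at 78.8, and in the 437 tied fibroblasts just outside they stood at 7.80, 36.8, 43.0 and 36.6 CPM. For Postn, 169 members held 1 UMI, and 73 fibroblasts with 2 UMIs met all other conditions. Another 281 barcodes met all conditions except that they held no Pdgfra UMI.

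The values of the genes that chose the members are given as a description. Gdf10 (ENSMUSG00000021943) stood at 75.2 CPM in sham members, 88.8 in TAC-2w, 403 in TAC-4w and 33.7 in TAC-6w. Rbp4 (ENSMUSG00000024990) followed the same order at the extremes, with 194, 167, 427 and 79.6 CPM. Igfbp3 (ENSMUSG00000020427) ran the other way, with 533, 654, 162 and 1318 CPM. Sfrp2 (ENSMUSG00000027996) moved least, with 267, 419, 403 and 308 CPM. TAC-4w members were thus high in Gdf10 and Rbp4 and low in Igfbp3, and TAC-6w members were high in Igfbp3 and low in Gdf10 and Rbp4. Against sham, Igfbp3 stood at 2.48 times the level in TAC-6w and at 0.303 times in TAC-4w, and Gdf10 at 0.449 and 5.35 times.

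**Figure D2:**
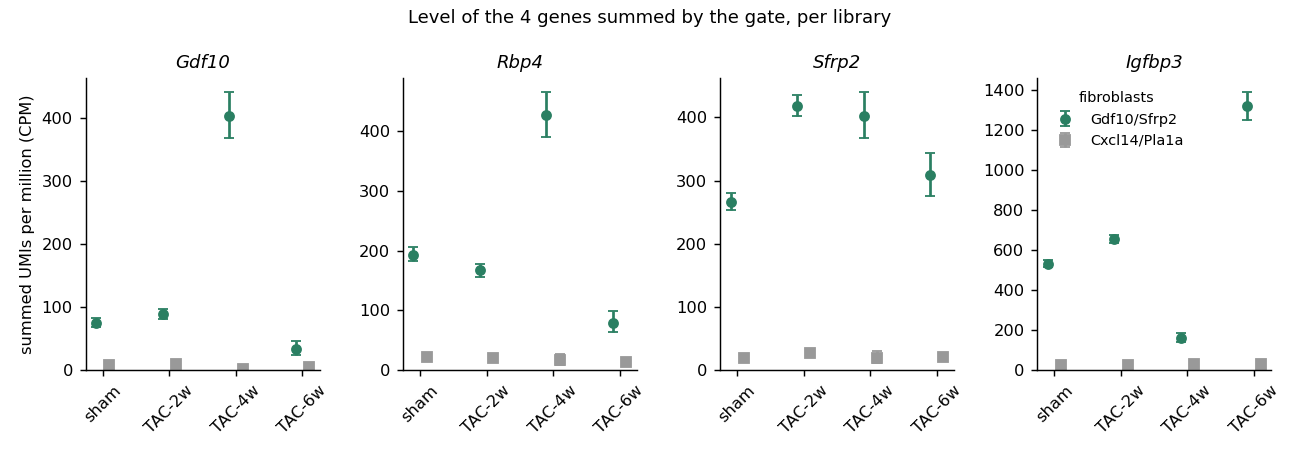
Levels of Gdf10, Rbp4, Sfrp2 and Igfbp3, in CPM, in members (green circles) and Cxcl14/Pla1a fibroblasts (grey squares) of the 4 libraries, with exact Poisson 95% intervals for counting error only. The gate fixes that the members are high; among them Gdf10 and Rbp4 are highest in TAC-4w, and Igfbp3 is highest in TAC-6w at 1318.

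Only 1 of the 4 genes was found in 43.2%, 41.7%, 22.3% and 57.5% of members, and all 4 in 11, 9, 4 and 0 members. Gdf10 was found in 25.4% of sham members, 21.8% of TAC-2w, 67.0% of TAC-4w and 13.0% of TAC-6w members, so the gene that gives the class its name was found in a minority of members in 3 of the 4 libraries. Barcodes with B cell markers, which should lack it, held a Gdf10 UMI in 1.24%, 0.649% and 0.347% of cases up to TAC-4w, and in 0 of 826 in TAC-6w, which allows a share of up to 0.363%. Their median depth was lower than that of the members, 3222, 3710, 4463 and 1991 UMIs. Rbp4 was found in 44.7%, 41.1%, 64.9% and 21.2% of members, Sfrp2 in 51.2%, 60.8%, 54.3% and 37.3%, and Igfbp3 in 53.0%, 56.0%, 22.3% and 79.8%. The name of the class therefore stands for its gate. Igfbp3 and Sfrp2 were each found in more members than Gdf10 in every library except TAC-4w.

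Members with Gdf10 also held Rbp4 more often than members without it in sham, 58.0% against 40.1%, and in TAC-4w, 73.0% against 48.4%; in TAC-2w the shares were 45.1% and 40.0%, and in TAC-6w 20.0% and 21.4%. Igfbp3 was less frequent in sham members with Rbp4 (39.4%) than in those without (64.0%), in TAC-2w (45.1% against 63.6%), in TAC-4w (16.4% against 33.3%) and in TAC-6w (53.7% against 86.8%). A barcode had to hold at least 1 of the 4 genes to be a member, which alone makes a gene more frequent where another is missing.

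Members with Gdf10 or Rbp4 made up 55.3% of the class in sham, 53.1% in TAC-2w, 83.0% in TAC-4w and 31.6% in TAC-6w. Members with Igfbp3 and neither of those made up 29.7%, 31.3%, 9.57% and 60.1%. When each member was thinned to 3000 UMIs, leaving out 16, 6, 2 and 12 shallower members, the first share became 35.9%, 28.5%, 65.2% and 23.8% and the second 32.2%, 34.4%, 8.70% and 60.8%. The order of the libraries was the same at equal depth, with the TAC-4w and TAC-6w members at opposite ends. At full depth the intervals of sham (51.1 to 59.5 for the first share) and TAC-2w (48.7 to 57.5) overlapped, as they did for the second share. The gate itself used these genes, so the shares are a description.

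Both sorts of member were looked at for other genes after their values were seen, and the values are a description. Tspan11, a membrane protein, stood at 33.7, 23.8, 121 and 14.0 against 1.32, 3.4, 0 and 0 CPM. Rgs2, a regulator of G protein signalling, ran the other way, with 12.0, 11.6, 3.77 and 5.58 against 62.1, 72.1, 72.6 and 29.7 CPM. Tbx20, a heart transcription factor, stood at 221, 274, 64.1 and 215 against 445, 467, 242 and 280 CPM. The TAC-4w values for Igfbp3 members rest on 9 cells, and 1 of them held all 6 Rgs2 UMIs. Acta2, smooth muscle actin, stood at 128, 195, 98.0 and 78.1 CPM in members with Gdf10 or Rbp4, and at 5.95, 13.6, 0 and 1.65 in those with Igfbp3 and neither. Single cells carried much of this: without the cell with the most Acta2 in each library, the first 4 values were 28.2, 22.7, 91.7 and 20.0 CPM and the others 4.65, 12.0, 0 and 0.

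Of the general fibroblast markers, the gate itself used Pdgfra, Dcn and the collagens, so only 7 others bear on the label. Lum, a collagen-binding proteoglycan, stood at 1384, 1552, 3125 and 870 CPM, and Tcf21, a transcription factor of cardiac fibroblasts, at 272, 319, 163 and 289 CPM. Gsn, the actin-severing protein gelsolin, stood at 22696, 22447, 12745 and 22462 CPM, and Dpep1, a dipeptidase, at 1321, 1612, 362 and 1378 CPM. All 4 were thus found in every library, and TAC-4w was high in Lum and low in the others. Against sham, the median log2 ratio of the 7 was 0.12 in TAC-2w, -0.74 in TAC-4w and 0.06 in TAC-6w. In TAC-4w 1 stood at least 2-fold higher (Lum) and 2 lower (Dpep1 and Fbln2), while in Cxcl14/Pla1a fibroblasts of TAC-4w the median was -0.12 and none stood 2-fold apart.

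RNA of other cells was low but not even. Macrophage markers summed to 227, 262, 41.4 and 107 CPM in members, with Lyz2 the most abundant and Adgre1 at 0 in TAC-4w and TAC-6w. Neutrophil markers summed to 11.7, 8.42, 196 and 29 CPM, with S100a9 the most abundant and Cxcr2 at 0 in sham, TAC-4w and TAC-6w. Red blood cell markers summed to 2351, 1562, 4658 and 1415 CPM, with Hbb-bs the most abundant. Outside the fibroblasts of the same libraries, neutrophil markers reached 1790, 1693, 40727 and 6679 CPM, so for these markers the TAC-4w library was high both in members and outside. Endothelial markers did not run in parallel: they reached 1547, 2382, 3844 and 1700 CPM outside the fibroblasts but summed to 279, 338, 196 and 210 CPM in members, with Fabp4 the most abundant except in TAC-4w (Ly6c1). Pecam1 was at 0 in members by the gate. Cardiomyocyte markers summed to 183, 186, 27.3 and 7.5 CPM in members; Ckm was at 0 in TAC-4w and TAC-6w. The part of these in the differences between conditions was not tested.

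Members were then compared with the Cxcl14/Pla1a fibroblasts of the same hearts, to ask which other genes set these neighbours apart. UMIs were summed per library and class, and the 4 libraries were the replicates (edgeR quasi-likelihood test with the library as a block, Benjamini-Hochberg adjusted over 12303 genes). The gate and the test used the same cells, so genes that vary with the 8 genes of the sums from cell to cell had to differ; the test says how repeatable a difference was over libraries. Outside the genes of the gate, members held more of 1286 genes, 10.5% of those tested, and less of 1045, 8.49%, at an adjusted p under 0.05. Of these 2331, 1987 had the same sign in all 4 libraries. The counts were 520 and 382 without the sham library and 531 and 363 without TAC-2w.

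Among the 10 genes with the largest excess in members, Cyp2e1, a cytochrome P450 enzyme, stood at 65.7, 88.1, 23.2 and 139 CPM in members and at 4.10, 8.31, 5.53 and 3.46 in Cxcl14/Pla1a fibroblasts. The groups did not overlap, and the log2 fold change was 3.98 (SE 0.24, adjusted p = 2.7e-06). Smad6, an inhibitor of BMP signalling, stood at 38, 53.0, 46.4 and 61.8 against 6.88, 7.82, 2.21 and 7.96 CPM, a log2 fold change of 2.79. Abcc9, a subunit of ATP-sensitive potassium channels, had the smallest error of the 10, with 57.5, 63.4, 98.6 and 44.0 against 8.10, 9.70, 12.2 and 5.71 CPM (log2 fold change 2.87, SE 0.10). The other 7 were Ecrg4 (3.74), Fmod (3.56), Epyc (3.30), Smoc1 (3.28), Cpxm2 (3.10), Atp1b1 (3.09) and Cdc42ep3 (2.83), of which Fmod and Epyc are small leucine-rich proteoglycans of the matrix.

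Fmod showed how uneven a gene of this group could be. It stood at 14.5, 18.6, 175 and 9.37 CPM in members against 0.879, 0.910, 1.11 and 7.36 in the neighbours, so that TAC-6w members were barely above Cxcl14/Pla1a fibroblasts of the same library. The excess was largest in TAC-4w.

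Members were low in another set of genes. Ret, the receptor tyrosine kinase for glial cell line-derived growth factors, stood at 2.61, 2.15, 0 and 2.81 CPM in members and at 69.6, 48.4, 59.7 and 48.5 in Cxcl14/Pla1a fibroblasts. The fitted log2 fold change of -4.65 depends in part on the prior count, since no Ret UMI was found in TAC-4w members. Pgf, placental growth factor, stood at 45, 32.3, 38.9 and 43.1 against 262, 217, 223 and 217 CPM, a log2 fold change of -2.49 (SE 0.10, adjusted p = 4.1e-07). Has2, which makes hyaluronan, stood at 7.63, 7.43, 1.66 and 2.81 against 52.3, 40.0, 64.2 and 22.8 CPM (log2 fold change -2.73). The other 7 of the 10 lowest were Stmn4 (-5.09), Efhd1 (-4.02), Basp1 (-3.19), Lrrn4cl (-2.76), Calcrl (-2.73), Ackr2 (-2.55) and Hs3st1 (-2.54). Each of these 20 genes passed the test under all 12 alternative analyses.

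**Figure D3:**
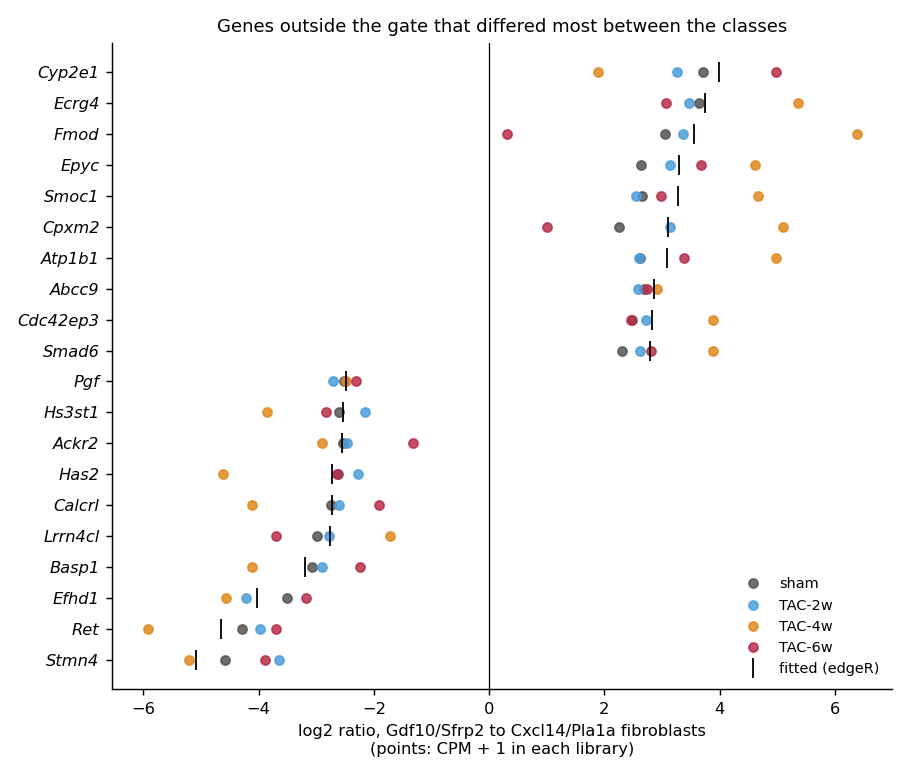
Log2 ratio of members to Cxcl14/Pla1a fibroblasts for the 10 highest and 10 lowest named genes; points are the 4 libraries (CPM plus 1) and vertical ticks the log2 fold change of the edgeR fit. All points of a gene lie on one side of 0, with Cyp2e1 fitted at 3.98 and Stmn4 at -5.09, and the TAC-4w points of Fmod and Cpxm2 lie far above those of TAC-6w.

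Genes of adventitial and progenitor-type fibroblasts, the cells around vessels, were low in members. Of 20 such genes tested, 17 were lower and 1 was higher (Col14a1), with a median log2 fold change of -1.10 beside -0.0041 over all genes. Pi16, a peptidase inhibitor that marks these cells, stood at 615, 553, 618 and 289 CPM in members and 1846, 1395, 2611 and 1678 in Cxcl14/Pla1a fibroblasts (log2 fold change -1.78, SE 0.16, adjusted p = 2.8e-05). Cd248, the surface protein endosialin, stood at 54.5, 37.6, 65.4 and 54.3 against 291, 202, 305 and 255 CPM (log2 fold change -2.27). The groups did not overlap for either gene.

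Wnt pathway genes were tested at 27, of which 13 were higher in members and 2 lower (Ror2 and Wnt11). Wnt5a, a Wnt ligand, stood at 43.6, 47.7, 109 and 30.9 CPM in members against 18.2, 23.0, 25.5 and 10.4. Dkk3, a secreted protein of the Dickkopf family, stood at 148, 139, 402 and 136 against 33.0, 37.4, 74.1 and 37.6 CPM (log2 fold change 2.14, SE 0.11, adjusted p = 1.0e-06). Sfrp1, a secreted Wnt antagonist related to Sfrp2, had a log2 fold change of 0.88, and Axin2, a common target of the pathway, one of 1.19 at levels of 11.2 CPM or less in members. Secreted modulators and ligands stood beside receptors (Fzd2, Fzd7, Lrp5, Lrp6) among the 13.

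In the TGF-beta and BMP pathway, 13 of 37 genes were higher and 8 lower. Id3, a target of BMP signalling, stood at 1534, 1937, 1644 and 1686 CPM in members and 497, 660, 292 and 568 in the neighbours (log2 fold change 1.87, SE 0.15, adjusted p = 1.7e-05), with no overlap. The inhibitors Smad6 and Smad7, the antagonists Chrdl1, Fst and Fstl3, and the targets Id1 and Id2 were higher as well. Among the ligands, Tgfb3 was higher, and Bmp2 (log2 fold change -1.67), Bmp6 and Tgfb1 (-1.25) were lower.

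The insulin-like growth factor axis had 7 of 12 genes higher and 2 lower (Igf2r and Igfbp6). Igf1, the ligand, stood at 641, 983, 387 and 339 CPM in members against 320, 379, 248 and 206 (log2 fold change 1.04, SE 0.11, adjusted p = 9.1e-05). In retinoid metabolism, 8 of 17 were higher and 2 lower. Cyp1b1 (log2 fold change 0.95), which oxidises retinoids among other substrates, and Lrat, which stores retinol as esters, were higher. The retinoic acid-making enzymes were split, with Aldh1a1 and Aldh1a3 higher and Aldh1a2 lower. Rdh10 was the other gene that was lower.

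Matrix genes split by kind. Of 9 small leucine-rich proteoglycan genes on the list, which does not hold Epyc, 4 were higher (Ecm2, Fmod, Ogn, Omd) and none lower; of 14 elastic fibre genes, 8 were higher and 4 lower. Fbln5, which helps assemble elastic fibres, stood at 385, 515, 763 and 417 CPM against 238, 272, 215 and 202 (log2 fold change 1.17). Basement membrane and collagen VI genes went the other way, with 13 of 20 lower and 2 higher (Col4a5, Col4a6). Nid1, nidogen, stood at 643, 709, 258 and 392 against 1202, 1311, 1044 and 825 CPM (log2 fold change -1.11). Of 20 fibrillar collagen and cross-linking genes, 7 were higher and 4 lower.

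Genes on a list of activated fibroblasts were higher at 13 of 23 and lower at 2, with a median log2 fold change of 1.13. Ccn2, connective tissue growth factor, stood at 556, 701, 2607 and 593 CPM in members against 335, 364, 617 and 584, so in TAC-6w the classes were nearly level. Comp, cartilage oligomeric matrix protein, stood at 92.7, 78.4, 1204 and 130 against 16.9, 15.1, 19.9 and 50.9 CPM. Acta2 and Tagln, contractile genes, belong to the list and also to the mural cell markers below.

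Complement genes were higher at 6 of 11 and lower at 1. C4b stood at 413, 377, 403 and 343 CPM against 105, 108, 63.1 and 102 (log2 fold change 2.06, SE 0.14, adjusted p = 5.1e-06). Of lipid and prostanoid genes, 8 of 19 were higher and 3 lower; Apoe, a lipid carrier, had a log2 fold change of 1.56. Chemokines and cytokines were higher at 5 of 19, among them Cxcl12 (1.16), and lower at 7, among them Ackr3 (-1.78), a scavenger receptor of Cxcl12. Proteases and inhibitors were higher at 8 of 21 and lower at 4, immediate early and dissociation genes higher at 8 of 25 and lower at 3, metallothionein and acute-phase genes higher at 4 of 12 and lower at 1, and interferon genes higher at 0 of 18 and lower at 2. None of 5 proliferation genes tested passed the test in either direction.

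**Figure D4:**
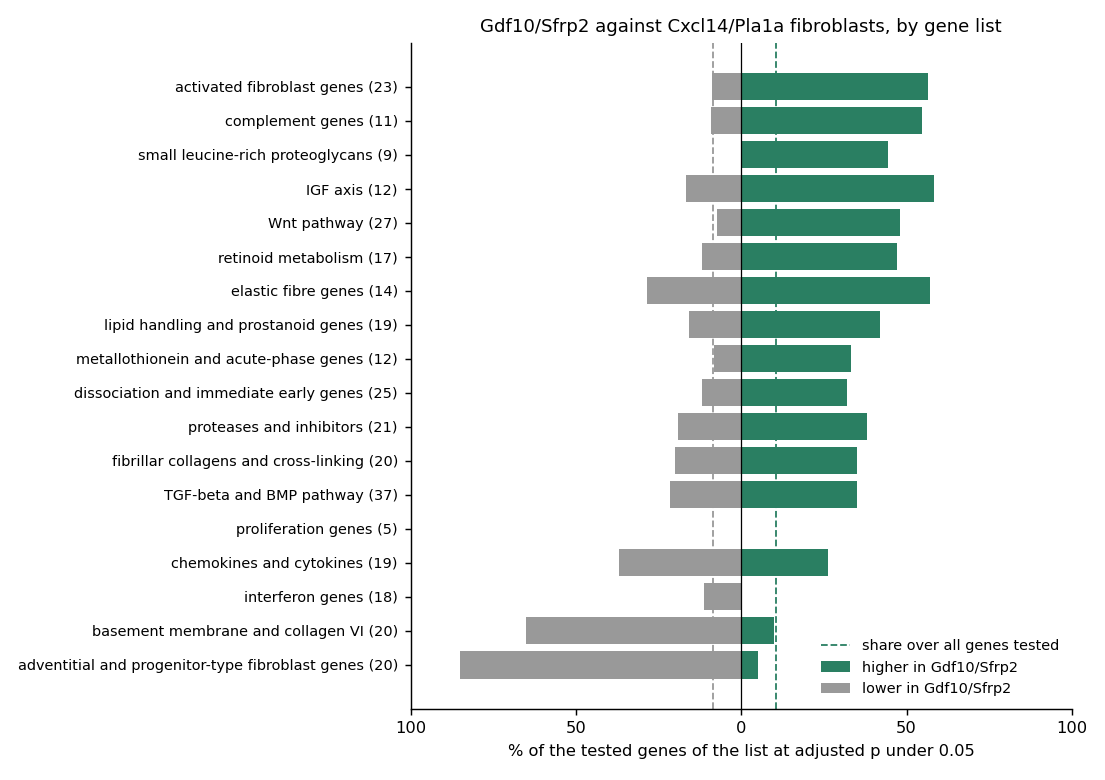
Percent of the tested genes of each list (number tested in brackets) that were higher (green, right) or lower (grey, left) in members than in Cxcl14/Pla1a fibroblasts at an adjusted p under 0.05; dashed lines are the shares over all genes tested, 10.5% and 8.49%. Adventitial genes (17 of 20 lower) and basement membrane genes (13 of 20 lower) lie on the left, and Wnt pathway genes (13 of 27 higher) on the right.

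Markers of mural cells, the pericytes and smooth muscle cells of vessel walls, moved with the class. All 7 tested were higher in members, and they summed to 398, 348, 366 and 169 CPM in members against 120, 64.9, 136 and 43.0 in Cxcl14/Pla1a fibroblasts. Acta2 was the most abundant in sham and TAC-2w, Abcc9 in TAC-4w and Tagln in TAC-6w, Vtn was at 0 in TAC-4w and TAC-6w, and Myh11 in TAC-4w. A UMI of Acta2, Tagln, Myh11 or Rgs5 was found in 24.6%, 33.0%, 50% and 14.0% of members and in 21.3%, 27.0%, 13.6% and 14.3% of Cxcl14/Pla1a fibroblasts. Without the cell with the most mural UMIs in each library and class, the sums were 254, 158, 347 and 132 CPM against 88.0, 57.7, 54.3 and 41.7. With all barcodes that held a UMI of Acta2, Tagln, Myh11 or Rgs5 left out of both classes, a step chosen after seeing the data, 1229 genes were higher and 1016 lower of 11677.

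Postn-positive fibroblasts were the other comparison, since pressure load is known to bring Postn into fibroblasts. The gate split these classes by Postn in the same cells. Only members also had to meet the conditions on the sums and on Wif1, Ucma and Chad. Pla1a, an opposing gene of the sums, stood at 7.63, 4.46, 0 and 8.43 CPM in members. In Postn-positive fibroblasts it stood at 176, 130, 30.1 and 196 CPM. Genes that vary from cell to cell with Postn or with the other genes of the gate thus had to differ. Members held more of 876 genes, 7.09% of 12355 tested, and less of 842, 6.82%, by the same edgeR test, with 1429 of the 1718 having the same sign in all 4 libraries. These counts moved with the libraries used: 116 higher and 124 lower without sham, 98 and 100 without TAC-2w, and 1350 and 1263 without TAC-4w. In TAC-4w the Postn-positive class itself held much of the genes that chose the members, with Gdf10 at 488 CPM against 13.2, 14.8 and 1.69 in sham, TAC-2w and TAC-6w.

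Inmt, a methyltransferase, led the genes that were higher in members, with 348, 472, 124 and 315 CPM against 29.5, 36.6, 25.2 and 7.68 (log2 fold change 3.87, SE 0.38, adjusted p = 0.001). Adm, the vasoactive peptide adrenomedullin, stood at 201, 213, 124 and 202 against 56.4, 49.4, 52.9 and 36.5 CPM. The other 8 were Aoc3 (2.73), Ggt5 (2.46), Slco2b1 (2.39), Aox3 (2.38), Vegfd (2.29), Col6a6 (2.22), Gm26771 (2.15) and Ccbe1 (2.12), of which Vegfd and Ccbe1 act in the growth of lymphatic vessels. Of the genes named in this comparison, Aox3 passed the test under 8 of 12 alternative analyses, Ccbe1 and Limch1 under 9, and the others under 11 or 12.

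Among the genes lower in members, Cilp, a matrix protein of cartilage and fibrotic heart, stood at 73.3, 75.4, 162 and 121 CPM against 402, 586, 289 and 1023 (log2 fold change -2.24, SE 0.32, adjusted p = 0.0036). Thbs4, thrombospondin 4, stood at 1.49, 1.32, 0 and 0 CPM against 26.2, 54.8, 16.8 and 206, so its fitted log2 fold change of -5.31 depends on the prior count. Others were Cst6 (-3.64), Efhd1 (-3.63), Basp1 (-2.95), Nes (-2.56), Limch1 (-2.38), Hs3st1 (-2.30) and Hmcn2 (-2.28). Efhd1, Basp1 and Hs3st1 were thus among the lowest in both comparisons, which share the member sums and the gate that chose the members.

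By lists, members were higher than Postn-positive fibroblasts at 12 of 20 lipid and prostanoid genes and lower at 0, higher at 9 of 11 complement genes and lower at 2, and higher at 12 of 25 immediate early and dissociation genes and lower at 1. They were lower at 13 of 25 activated fibroblast genes and higher at 4, lower at 6 of 9 proliferation genes and higher at 0, and lower at 15 of 20 adventitial genes and higher at 1. Postn, which helped to split these classes, is itself known from activated fibroblasts, so the count for the activated list is a description. Mki67, a proliferation marker, had a log2 fold change of -2.98 and stood at 1.12, 1.16, 0.828 and 0.937 CPM in members. It was found in 6, 6, 1 and 1 members, so the size of its fitted fold change rests on few UMIs. Of the activated list, Comp, Cthrc1, Ltbp2 and Timp1 were higher in members than in Cxcl14/Pla1a fibroblasts and lower than in Postn-positive fibroblasts, Comp by 2.75 and -0.98 on the log2 scale. Mural markers were split here, with 3 higher and 1 lower (Rgs5) of 7.

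Conditions were compared within the members by the ratio of CPM to sham, for genes whose UMIs reached 100 in one of the sums, and a 2-fold ratio was used as a fixed size with no test. The 3 comparisons share the sham library. In TAC-6w, 53 of 5753 genes stood at least 2-fold higher (0.921%) and 243 at least 2-fold lower (4.22%), together 5.15%, with a median log2 ratio of -0.13. In TAC-2w it was 6 of 6361 genes (0.0943%) and 14 (0.22%), together 0.314%, and in TAC-4w 135 of 5762 (2.34%) and 241 (4.18%), together 6.53%. By these counts members of TAC-2w lay nearest to sham. With a minimum of 200 UMIs, the TAC-6w counts became 31 and 107. Intervals lay wholly beyond 2-fold for 22 genes that were higher and 37 that were lower in TAC-6w, and for 71 and 89 in TAC-4w. The split also moved with the scaling: with TMM factors the counts were 75 higher and 189 lower in TAC-6w, and 100 and 290 in TAC-4w. The minimum is set in UMIs, so it admits genes at a lower level from the deep sham sum than from the TAC-4w or TAC-6w sum. Signs of RNA quality moved with the same libraries. Mitochondrial genes summed to 42194, 42486, 29783 and 26386 CPM in members, and Malat1, a nuclear RNA, stood at 28155, 29091, 39152 and 26047 CPM. Their part in the ratios was not tested. For the lists below, the shares of all genes in Cxcl14/Pla1a fibroblasts were 1.26% at least 2-fold higher and 2.37% lower in TAC-6w. They were 0.134% and 0.257% in TAC-2w, and 2.50% and 3.28% in TAC-4w.

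**Figure D5:**
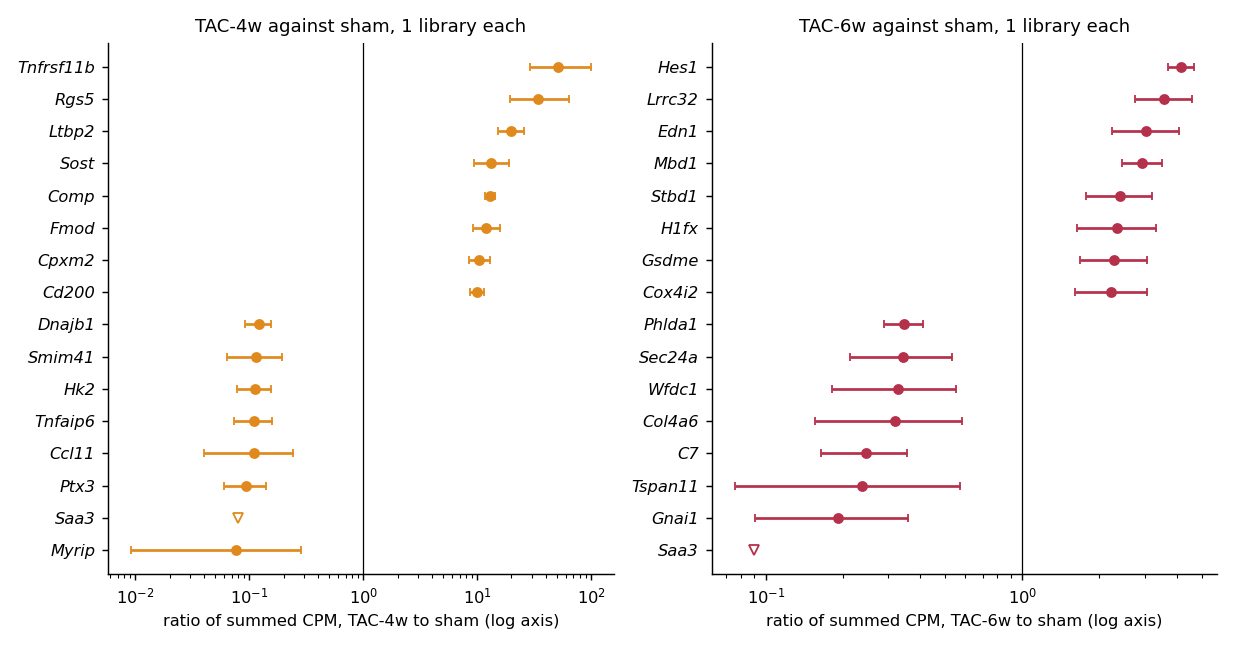
Ratio of CPM to sham in members, on a log axis, for the 8 highest and 8 lowest named genes at TAC-4w (left) and TAC-6w (right), with exact 95% intervals for counting error only; open triangles are upper limits for Saa3, which had no UMI. Comp at TAC-4w lies at 13.0 and Hes1 at TAC-6w at 4.17, each the ratio of a gene that met the level condition in the TAC library but not in sham.

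Genes were named for a condition only where their level in members was at least 2 times that of barcodes outside the fibroblasts, in whichever of the 2 libraries was the higher. A gene could thus pass through the library where it was high: of the 8 highest, 4 in TAC-6w, 5 in TAC-2w and 1 in TAC-4w (Cpxm2) also met this in sham. The ratios of named genes are therefore a description and are not ranked between conditions.

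Hes1, a transcription factor that answers to Notch signals, had the highest ratio of the named genes in TAC-6w members, with 117, 146, 72.9 and 489 CPM (ratio 4.17, interval 3.71 to 4.69). The ratio was 4.86 within members with Gdf10 or Rbp4, 2.77 within those with Igfbp3 and neither, and 2.71 in Cxcl14/Pla1a fibroblasts. Lrrc32, which anchors latent TGF-beta, stood at 27.4, 24.8, 22.4 and 97.4 CPM (ratio 3.56), and Edn1, the vasoconstrictor endothelin 1, at 22.5, 29.4, 30.7 and 68.4 CPM (ratio 3.04). TAC-6w was the high library for all of these, and sham, TAC-2w and TAC-4w lay close together for Lrrc32 and Edn1. Mbd1 (2.94), Stbd1 (2.40), H1fx (2.35), Gsdme (2.28) and Cox4i2 (2.22) completed the 8 highest. In Cxcl14/Pla1a fibroblasts of TAC-6w the ratios were 2.86 for Lrrc32, 2.27 for Mbd1, 2.62 for Stbd1 and 2.27 for H1fx, also past 2-fold, and 1.78 for Edn1, 1.61 for Gsdme and 1.63 for Cox4i2. Outside the fibroblasts Lrrc32 stood at 15.8 CPM in sham and 35.2 in TAC-6w. The higher levels were thus not shown to be particular to members.

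Among the lowest in TAC-6w, C7, a complement component, stood at 114, 93.9, 92.0 and 28.1 CPM (ratio 0.246, interval 0.164 to 0.354), and its ratio in Cxcl14/Pla1a fibroblasts was 0.285. Phlda1 stood at 390, 296, 345 and 135 CPM (ratio 0.346). Saa3, an acute-phase protein, stood at 31.3, 0.660, 0 and 0 CPM, but the sham level came from 4 of 562 members, with 68.5% of the 168 UMIs in 1 cell. Against the limit of 3 counts that a count of 0 allows, Saa3 was at most 0.0899 times the sham level in TAC-6w, and at most 0.286 times without that cell. In Cxcl14/Pla1a fibroblasts the Saa3 ratio was 0.886. At 4 cells in sham, a difference between the conditions in the share of members with Saa3 was not detectable: the intervals were 0.194% to 1.81% in sham and 0% to 1.89% in TAC-6w. The others were Gnai1 (0.191), Tspan11 (0.237), Col4a6 (0.318), Wfdc1 (0.328) and Sec24a (0.344). Tspan11 rested on 5 UMIs in TAC-6w, and within members with Gdf10 or Rbp4, which held most of it, its ratio was 0.414. In Cxcl14/Pla1a fibroblasts the ratios of Gnai1 (0.386), Col4a6 (0.481) and Phlda1 (0.478) also lay past 2-fold. Those of Tspan11 (1.48), Wfdc1 (0.789) and Sec24a (0.821) did not reach it.

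Among the lists that are not markers of other cells, interferon genes had the lowest median in TAC-6w members. Of 17 compared, 9 stood at least 2-fold lower and none higher, with a median log2 ratio of -1.01. Ifit3 stood at 88.2, 53.3, 63.8 and 5.62 CPM (ratio 0.0637, interval 0.0233 to 0.140), Ifit1 at 75.0, 51.8, 34.8 and 11.2, and Iigp1 at 98.3, 95.6, 52.2 and 28.1. TAC-6w was the low library for all 3. Isg15 went against these, at 39.1, 56.6, 23.2 and 62.8 CPM (ratio 1.61, interval 1.2 to 2.12). The list was low in Cxcl14/Pla1a fibroblasts of TAC-6w too, with 7 of 18 at least 2-fold lower, so it was not shown to be particular to members. In TAC-4w members 7 of 17 were at least 2-fold lower, and in TAC-2w none of 18. Of adventitial genes 4 of 16 stood at least 2-fold lower in TAC-6w members (median log2 ratio -0.45), with Pi16 at 0.469 times sham. In Cxcl14/Pla1a fibroblasts of TAC-6w it was 5 of 20 (median -0.48), so this was not shown to be particular to members. Interferon genes summed to 6334, 5253, 2312 and 4139 CPM in members and were more abundant outside the fibroblasts, at 10638, 9687, 6358 and 6594 CPM. Beside these, all 6 cardiomyocyte markers compared stood at least 2-fold lower in TAC-6w and in TAC-4w members, and in TAC-6w members 2 of 4 macrophage markers (median log2 ratio -1.09) and 2 of 5 mural markers (-0.98) did. Their part in the interferon ratios was not tested.

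In TAC-4w members, 7 of the 8 highest named genes were below 2 times the outside level in sham. Comp stood at 13.0 times the sham level (interval 11.7 to 14.4), and was found in 45.7% of TAC-4w members, although 58.6% of its UMIs came from 9 cells. Within members with Gdf10 or Rbp4, whose share of the class was higher in TAC-4w (83.0% against 55.3% in sham), the Comp ratio was 11.5. Within the 9 TAC-4w members with Igfbp3 and neither it was 2.12, and in Cxcl14/Pla1a fibroblasts 1.18. Ltbp2, which binds latent TGF-beta, stood at 13.4, 30.4, 266 and 15.9 CPM (ratio 19.8), and Fmod at 12.0 times sham. Cd200, a surface glycoprotein, stood at 50.8, 66.2, 504 and 17.8 CPM (ratio 9.93). TAC-4w was the high library for each of these. In the 9 Igfbp3 members the Ltbp2 ratio was 0.963 and no UMI of Fmod or Cpxm2 was found. There the ratio was 2.97 for Cd200 and 44.9 for Rgs5. With 9 cells these values do not show whether a gene stood higher in such members. Rgs5 stood at 34.0 times sham and Tnfrsf11b, osteoprotegerin, at 51.7 times, but 97.2% and 86.8% of their UMIs came from 9 of the 94 members, and the sham level of Tnfrsf11b rested on 13 UMIs, 84.6% of them in 1 cell. Sost (13.3) and Cpxm2 (10.4) were the other genes of the 8 highest. In Cxcl14/Pla1a fibroblasts of TAC-4w the ratios of Ltbp2 (3.87), Rgs5 (3.91) and Tnfrsf11b (7.25) also lay past 2-fold, on 29, 5 and 8 UMIs. Those of Fmod (1.26), Cpxm2 (1.49) and Cd200 (1.17) did not, and no UMI of Sost was found there.

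In the small leucine-rich proteoglycans, 4 of 9 genes stood at least 2-fold higher in TAC-4w members: Fmod, Lum (2.26), Prelp (3.31) and Aspn (3.70). In Cxcl14/Pla1a fibroblasts of TAC-4w it was 0 of 8, a difference that was not tested. In the TGF-beta and BMP pathway 5 of 29 stood at least 2-fold higher and 0 lower, among them the target Id1 (4.08) and the antagonist Fst, at 94.0, 101, 707 and 53.4 CPM. In the Wnt pathway it was 3 of 14, the antagonist Frzb (4.14), Dkk3 (2.71) and Wnt5a (2.49). In Cxcl14/Pla1a fibroblasts of TAC-4w 3 of 21 Wnt pathway genes stood at least 2-fold higher and 1 lower. Activated fibroblast genes were split in members, with 6 of 18 higher and 3 lower.

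Chemokines stood lower in TAC-4w members, at 6 of 12 genes compared, with a median log2 ratio of -1.73. In Cxcl14/Pla1a fibroblasts of TAC-4w 8 of 15 did, beside 3.28% of all genes, with a median of -1.15, so this was not shown to be particular to members. Macrophage markers stood lower in the same members at 4 of 4 compared, with a median of -3.91, and their part in the chemokine ratios was not tested. Cxcl1, which draws neutrophils, stood at 1215, 1008, 195 and 1231 CPM (ratio 0.160), Ccl2, which draws monocytes, at 96.2, 29.9, 2.49 and 72.1, and Il6 at 138, 123, 22.4 and 109. TAC-4w was the low library for all 3. Of lipid and prostanoid genes, 7 of 17 stood at least 2-fold lower and 1 higher; Ptgs2, which makes prostanoids, stood at 411, 354, 74.6 and 410 CPM. Immediate early and dissociation genes stood lower at 7 of 25, and in Cxcl14/Pla1a fibroblasts of TAC-4w at 19 of 25. Ptx3 (0.0936), Ccl11 (0.109), Tnfaip6 (0.110), Hk2 (0.112), Smim41 (0.115), Dnajb1 (0.120) and Myrip (0.0761) were among the 8 lowest, with Saa3 at most 0.0795, or 0.253 without the sham cell that held most of it. Myrip rested on 2 UMIs in TAC-4w members and Ccl11 on 6. In Cxcl14/Pla1a fibroblasts of TAC-4w the ratios of Ptx3 (0.193), Dnajb1 (0.185), Hk2 (0.295) and Tnfaip6 (0.461) also lay past 2-fold. Those of Ccl11 (1.11), Myrip (1.39) and Smim41 (0.576) did not. The values of TAC-4w members rest on 94 cells of 1 library, and these members also held the highest neutrophil and red blood cell markers.

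TAC-2w members showed few genes past 2-fold. Trdn, a muscle protein of calcium release, had the highest ratio, 3.62, on 102 UMIs. Ank3 (2.03), Fgfrl1 (1.95), Col12a1, a fibril-associated collagen (1.92), and Cstf3 (1.86) were also among the highest 8. Saa3 was the lowest at 0.0211 times sham, on 4 UMIs in TAC-2w and on the 4 sham members described above; without the cell with the most Saa3 in each library it was 0.0334. It was followed by Cnmd (0.381) and Cfb (0.498), a complement factor. Chemokines stood lower at 3 of 12 genes in members and at 3 of 15 in Cxcl14/Pla1a fibroblasts of TAC-2w. This was thus not shown to be particular to members, in which Ccl2 stood at 0.310 and Ccl7 at 0.412 times sham. Ptn (0.589), Sec24a (0.600), Ccl11 (0.626), Il33 (0.638) and Wfdc1 (0.640) did not reach 2-fold. For Ptn, 1 sham cell held 40.3% of the UMIs. Without the cell with the most Ptn in each library the ratio was 0.934, while it was 1.29 within members with Gdf10 or Rbp4 and 0.179 within those with Igfbp3 and neither. Leaving out the member with the most UMIs of the gene in each library, a step added after seeing the data, moved 7 of the 48 named ratios to sham by over 1.5 times: Saa3 in all 3 comparisons, Ptn here, and Tnfrsf11b, Myrip and Ccl11 in TAC-4w.

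The heart sections gave the same genes in whole tissue, where fewer cells of a type and less RNA per cell cannot be told apart. The sections had 1676, 2063, 1228 and 2193 spots, each a small area that can hold several cells, and 25996378, 48754396, 31942372 and 48288659 UMIs. Their batch labels were 1, 1, 2 and 3, so sham shares its label with TAC-2w here, and intervals cover counting error only. Gdf10 stood at 2.58, 2.40, 1.41 and 2.09 CPM, and its intervals overlapped except between TAC-4w (1.03 to 1.89) and the sham (2.00 to 3.27) and TAC-2w (1.98 to 2.88) sections. Igfbp3 stood at 18.6, 15.1, 19.9 and 10.8 CPM, so TAC-6w was the low section although TAC-6w members were the high ones. Sfrp2 stood at 1.54, 1.23, 1.35 and 4.29 CPM and was high in TAC-6w. Rbp4 rested on 9, 17, 20 and 8 UMIs.

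Of the genes that led in TAC-4w members, Comp, Fmod and Ltbp2 were higher in the TAC-6w section than in the TAC-4w section. Comp stood at 1.35, 0.820, 4.73 and 6.36 CPM, Fmod at 0.692, 0.390, 0.877 and 2.75, and Ltbp2 at 2.69, 0.923, 5.51 and 9.71. Postn stood at 23.8, 15.1, 35.2 and 106 CPM in the same sections. Hes1 stood at 21.3, 19, 20.9 and 20.5 CPM, with no section apart from the others as TAC-6w members were. With mitochondrial and ribosomal RNA features left out, Gdf10 stood at 5.35, 4.26, 2.45 and 3.76 CPM, in the same order. For Igfbp3 the sham section then became the highest, at 38.5 against 34.6 in TAC-4w. As a mean of the CPM of each spot, Gdf10 stood at 2.33, 2.32, 1.47 and 2.43, so TAC-6w became the highest section and TAC-4w stayed the lowest.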

How the data were processed

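Raw UMI counts per gene and barcode (4 single-cell libraries, 32285 genes) and per gene and spot (4 sections) were used as deposited by the authors. The file headers name Cell Ranger 6.0.0 and Space Ranger 1.2.0; the submitters' processing notes list Cell Ranger 7.0.0, Space Ranger 1.3.1 and mm10. The labels describe nuclei and the study's methods a cell suspension. The run labels on the study's own panels, unlike the batch labels, put the sham and TAC-2w libraries together. Libraries held 86671674 UMIs in sham, 78587992 in TAC-2w, 48278486 in TAC-4w and 28793316 in TAC-6w.

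The members and the 31 gene lists were chosen with earlier results of these data known. Barcodes were gated on raw counts, with no doublets removed (4, 4, 2 and 6 members lay among the barcodes with the top 3.2% of doublet scores, an alternative that left them out). CPM is a sum of UMIs over the sum of all UMIs of the same cells, times 1000000. Intervals (95%) are exact Poisson for levels, Clopper-Pearson for shares and conditional binomial for ratios, and cover counting error only.

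Classes were compared on 8 sums with edgeR 4.0.16 (R 4.3.3; TMM, filterByExpr, quasi-likelihood test, library as a block, Benjamini-Hochberg adjusted p under 0.05 over all genes tested); the 19 genes of the gate stay in the fit and out of the counts. Named for classes were the 10 highest and 10 lowest log2 fold changes among called genes outside the gate, with one sign in all libraries and a mean of at least 20 CPM. Named for conditions were the 8 highest and 8 lowest ratios among genes whose UMIs reached 100 in one of the sums and whose CPM in members was at least 2 times that of barcodes outside the fibroblasts in the library with the higher level, which left 626 genes to rank in TAC-6w, 804 in TAC-2w and 1325 in TAC-4w; list genes were named from their lists, and Hes1, Comp, Saa3 and others are followed in the sections. Some genes that these rules name are not reported here. The edgeR script was first tested on simulated data. Alternatives were DESeq2 1.42.0, upper-quartile scaling, no filter, no block, each library left out, doublets left out, thinning to 3000 UMIs, a larger margin between the sums and, added after seeing the data, mural-marker barcodes left out, subgroups of members, and single cells with the most UMIs of a gene left out. Counting and figures used scanpy 1.11.5, pandas 2.3.3, scipy 1.17.1, numpy 2.4.6 and matplotlib 3.10.9 under Python 3.11.15.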

Additional observations from a re-analysis of the deposited data

How the results depend on the processing

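Against Cxcl14/Pla1a fibroblasts, the counts of genes higher and lower in members were 419 and 289 without the library block, 798 and 644 after thinning to 3000 UMIs, and 520 to 1554 and 363 to 1317 when each library was left out in turn, lowest without sham or TAC-2w. Against Postn-positive fibroblasts they were 46 and 54 without the block and 550 and 476 after thinning, 526 lower with DESeq2, and 98 to 1350 and 100 to 1263 when each library was left out, lowest without TAC-2w. For the ratios to sham, a minimum of 200 UMIs gave 31 and 107 genes at TAC-6w, 1 and 7 at TAC-2w and 68 higher at TAC-4w. A minimum of 20 UMIs gave 229 and 909 at TAC-6w, 115 and 73 at TAC-2w and 506 and 676 at TAC-4w. Thinning gave 24 and 86, 2 and 3, and 50 and 125 in the same order. Only members with Igfbp3 and neither Gdf10 nor Rbp4, a choice made after seeing the data, gave 23 and 60 at TAC-6w, 9 and 7 at TAC-2w and 57 and 212 at TAC-4w. The share of fibroblasts in sham was 15.6% with all barcodes thinned, 12.1% with a margin of 3 UMIs, 14.9% with Postn at 0 and 19.8% with no Postn condition. In TAC-2w it was 15.7% with the margin, 18.6% with Postn at 0 and 24.9% with no Postn condition; in TAC-4w 42.2% thinned, 25.6% with Postn at 0 and 53.7% with no Postn condition; and in TAC-6w 6.53% with the margin. The cause of these moves was not tested, except that fewer genes or samples entered the stricter settings. Of the values that answer a comparison, 80 stayed and 50 moved; of the others 176 stayed and 47 moved. Staying means within 1.5 times for a count of genes, within the main value's 95% counting interval for a share, level or ratio, and within 1 on the log2 scale for a list median. By that interval, which is wide at few UMIs, the TAC-4w ratios of Myrip and Ccl11 and the TAC-2w ratio of Saa3 stayed, at 0.0395, 0.0524 and 0.0334 without the top cell, although they moved by over 1.5 times. With TMM factors, 7 of 79 list medians of the ratios to sham changed sign, each of them within 0.097 of 0 on the log2 scale. The balance of TAC-2w turned from more genes lower (14 against 6) to more higher with the minimum of 20 UMIs and in members with Igfbp3 only. With mitochondrial and ribosomal RNA features left out, the order of the sham and TAC-4w sections in Igfbp3 turned, as did that of sham and TAC-2w in Rbp4. With the mean of the CPM of each spot, the TAC-6w section became the highest in Gdf10. The order of TAC-2w and TAC-4w in Sfrp2 turned with that mean too.

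The conditions have 1 library each, so no setting here bears on replicate error between them. TAC-4w members are 94 cells, and TAC-6w members the shallowest.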
